A study of Mus musculus with 16 samples.

Results

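The 10 genes described here are commonly used to recognise classical, Ly6C-high monocytes of the mouse: Ccr2, Csf1r, Cd14, Clec4a3, Ms4a6c, Fn1, Vcan, F13a1, Klf4 and S100a4. They were found on the arrays by gene symbol and were read by 16 of 39429 noncontrol probes, and all 10 were among the 28792 features tested. The study hybridised RNA of CD11b+ cells, a mixed myeloid population, from 2 tissues (spleen and bone marrow) of male mice on 2 diets, a high-fat diet (HFD) for 3 months or a control diet, as a mouse model of atherosclerosis. The mice were labelled STAT4-/-, STAT6-/-, HDC-/- or WT. STAT4 and STAT6 are transcription factors that carry cytokine signals, and HDC is the enzyme that makes histamine. Each of the 16 combinations had 1 one-colour array, hybridised with RNA from cells of 5 mice, so that a pool and not a mouse is the unit, and the spread between pools of the same combination is unknown. Strain background, age, any further allele and how the knockouts were made are not stated in the sources used here.

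Classical monocytes are made in the bone marrow from progenitors and leave it through CCR2, a receptor that follows the chemokines CCL2 and CCL7 into the blood. CSF1R, the receptor for CSF1 and interleukin-34, keeps monocytes and macrophages alive, and CD14 presents bacterial lipopolysaccharide to TLR4. The spleen holds a reserve of monocytes beside its resident macrophages, dendritic cells and Ly6C-low patrolling monocytes, into which classical monocytes can mature.

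The promoters of 5 of the genes are shown because 4 of them, Ccr2, Ms4a6c, Clec4a3 and S100a4, varied together across the spleen arrays, while the fifth, F13a1, differed between the tissues. Each sequence holds 250 bases before and 50 bases from the annotated start and is written 5′ to 3′ on the strand of the gene. Sequences come from the RefSeq promoters of GRCm38.p6 and were read for 7 of the 10 genes. Capitals mark matches to GAGGAA or, where it lies on the other strand, to its reverse complement, a core often bound by the myeloid factor PU.1. The windows are chr9:124101933-124102232 (plus strand) for Ccr2, chr19:11469118-11469417 (plus strand) for Ms4a6c, chr6:122952394-122952693 (plus strand) for the second of 2 listed starts of Clec4a3, chr3:90603520-90603819 (plus strand) for S100a4 and chr13:37050195-37050494 (minus strand) for the first of 2 listed starts of F13a1.
Ccr2: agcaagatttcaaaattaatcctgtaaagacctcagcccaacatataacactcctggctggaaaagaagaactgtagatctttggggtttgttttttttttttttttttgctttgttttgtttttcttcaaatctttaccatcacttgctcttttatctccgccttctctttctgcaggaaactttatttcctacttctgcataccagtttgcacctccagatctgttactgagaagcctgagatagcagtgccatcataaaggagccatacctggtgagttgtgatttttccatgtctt
Ms4a6c: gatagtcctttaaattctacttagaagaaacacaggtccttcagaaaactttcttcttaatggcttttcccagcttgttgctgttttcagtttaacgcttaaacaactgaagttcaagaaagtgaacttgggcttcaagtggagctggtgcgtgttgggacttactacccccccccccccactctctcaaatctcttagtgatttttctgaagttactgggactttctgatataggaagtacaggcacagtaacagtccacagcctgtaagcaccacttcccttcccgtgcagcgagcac
Clec4a3: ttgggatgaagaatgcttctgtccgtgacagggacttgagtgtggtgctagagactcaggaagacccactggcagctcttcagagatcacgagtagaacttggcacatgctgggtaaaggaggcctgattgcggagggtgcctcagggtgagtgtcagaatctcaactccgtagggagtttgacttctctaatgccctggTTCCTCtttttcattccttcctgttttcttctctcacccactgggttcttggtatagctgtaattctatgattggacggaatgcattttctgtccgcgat
S100a4: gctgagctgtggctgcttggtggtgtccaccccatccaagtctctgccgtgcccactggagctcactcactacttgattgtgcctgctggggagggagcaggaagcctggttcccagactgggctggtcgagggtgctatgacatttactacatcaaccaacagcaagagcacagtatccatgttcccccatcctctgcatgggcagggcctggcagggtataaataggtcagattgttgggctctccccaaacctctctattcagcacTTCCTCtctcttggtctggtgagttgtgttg
F13a1: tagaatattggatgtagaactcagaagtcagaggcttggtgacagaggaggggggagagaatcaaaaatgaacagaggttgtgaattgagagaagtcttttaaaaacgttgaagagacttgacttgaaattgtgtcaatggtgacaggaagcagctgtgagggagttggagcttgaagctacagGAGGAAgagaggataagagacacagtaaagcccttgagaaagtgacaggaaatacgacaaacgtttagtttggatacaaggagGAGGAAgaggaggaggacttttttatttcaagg
GAGGAA was found in 28.3% of all 32851 listed promoters. It occurred 2 times in the F13a1 window, 1 time each in those of S100a4 and Clec4a3, and not in those of Ccr2 and Ms4a6c. TTGCNNAA, a form of the C/EBP motif found in 10.8% of promoters, and GGGNGTGG, a form bound by KLF proteins and found in 17.6%, occurred in none of the 5 windows. Of the 4 genes that varied together, Clec4a3 and S100a4 thus held GAGGAA in these windows, while Ccr2 and Ms4a6c held none of these letter strings. The first listed start of Clec4a3, not shown, held none of them either. The second listed start of F13a1, not shown, held GAGGAA and GGGNGTGG 1 time each. Klf4 and Vcan, read but not shown, held no GAGGAA, and Vcan held GGGNGTGG 2 times. At the first listed start, 2 of the 7 genes read held GAGGAA. These matches say nothing of the factors themselves.

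Signals are given as levels, the log2 of the background-subtracted signal minus that array's 75th percentile, so that a level of 0 is the 75th percentile and a step of 1 is a doubling. Between 59.9% and 85.3% of probes were well above background on an array, and no spot was saturated. The arrays lay on 4 slides of 4, each of 1 tissue. Both diets of a genotype, and STAT4-/- with WT, shared a slide, while tissue, and STAT6-/- or HDC-/- against WT, cannot be told apart from slide. Itgam, which encodes CD11b, lay between 3.13 and 6.05 in spleen and between 4.74 and 6.06 in marrow. Hdc lay between 0.98 and 1.92 on the 4 arrays labelled HDC-/-, against 4.06 to 5.79 on 11 others. Stat4 was not lower on the arrays labelled STAT4-/- (0.41 to 3.51, against −0.89 to 1.33), and Stat6 overlapped between those labelled STAT6-/- (2.55 to 3.04) and the others (2.34 to 4.14). Whether these probes lie in the deleted parts is not given, so these 2 genes check no label. Y-linked genes averaged −8.39 to −5.57 on the 4 control-diet arrays labelled STAT4-/- or HDC-/-, against −0.62 to 0.35 on the other 12, although all mice were labelled male. The STAT4-/- spleen HFD array correlated more closely with the marrow arrays (r = 0.970) than with the other spleen arrays (0.947), and the HDC-/- marrow control array more closely with spleen (0.954) than with marrow (0.947). The HDC-/- marrow control array is in both sets, so 5 arrays are concerned. Their labels were kept. Several fitted changes that rest on them are also given without the 4 arrays or without the 2, while spreads and correlations are given over all arrays.

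All 10 genes were well above background on all 16 arrays, read from the brightest probe of each. For Ccr2, Ms4a6c, Cd14, Fn1, Klf4 and Clec4a3 this was the only probe. The plot of levels on the 16 arrays gives every value.

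**Figure D1:**
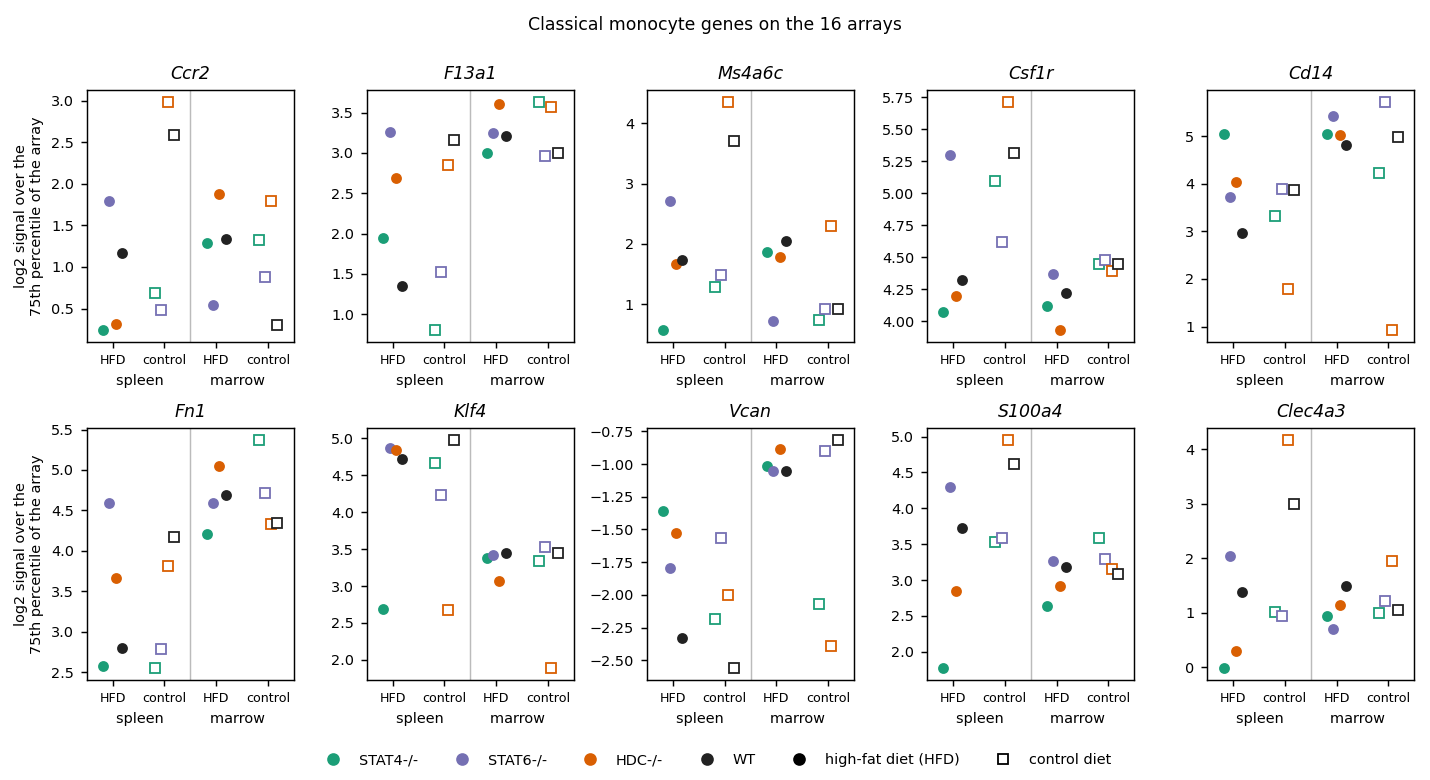
Level (log2 signal over the 75th percentile of the array) of each of the 10 genes on the 16 arrays, by tissue and diet; each point is 1 array, coloured by labelled genotype, with filled circles for HFD and open squares for the control diet. Fn1 and F13a1 sit mostly lower in spleen than in marrow, and Ccr2, Ms4a6c, Clec4a3 and S100a4 spread more widely in spleen.

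The tissue comparison asked how splenic CD11b+ cells differ from those of the marrow. Of the 10 genes, 2 passed the test, both lower in spleen: Fn1, which encodes the matrix protein fibronectin, and F13a1, which encodes the catalytic subunit of clotting factor XIII. No gene of the 10 was called higher in spleen. Over all 28792 features, 32% were called by limma at an adjusted p under 0.05, 14.9% higher and 17.1% lower in spleen, so 2 of 10 is no larger a share than that of all features. The median change of the 10 genes was 0.26 (log2, spleen minus marrow), and that of all features was −0.06.

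Fn1 lay between 2.55 and 4.59 with a median of 3.23 on the 8 spleen arrays, and between 4.20 and 5.38 with a median of 4.64 on the 8 marrow arrays. Of the spleen arrays, 7 were below the lowest marrow array, and only that of STAT6-/- mice on HFD reached the marrow range. The level of Fn1 was 2.46-fold lower in spleen (log2 change −1.30 ± 0.33, SE, 8 arrays against 8, limma adjusted p = 0.0154), and lower in 8 of 8 pairs of the same genotype and diet. Without the 4 arrays with low Y-linked signal its change was −1.28 with an adjusted p of 0.144. F13a1 lay between 0.80 and 3.26 with a median of 2.32 on the spleen arrays, and between 2.96 and 3.64 with a median of 3.23 on the marrow arrays. The groups overlapped, with 6 spleen arrays below the lowest marrow array and those of WT control and STAT6-/- HFD mice within the marrow range. The level of F13a1 was 2.12-fold lower in spleen (log2 change −1.08 ± 0.35, SE, limma adjusted p = 0.0378, lower in 6 of 8 pairs). A second F13a1 probe gave −1.01 with an adjusted p of 0.0408. The F13a1 call was the less steady of the 2: it passed under 13 of 31 other settings, against 28 of 31 for Fn1, and without the 4 arrays with low Y-linked signal F13a1 changed by −0.81 with an adjusted p of 0.359.

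Vcan, which encodes versican, the other matrix component of the set, lay between −2.56 and −1.36 with a median of −1.90 in spleen, and between −2.39 and −0.81 with a median of −1.03 in marrow. On 6 of the 8 marrow arrays Vcan was above every spleen array, and the other 2 were the control-diet arrays labelled STAT4-/- and HDC-/-. Its change was −0.64 ± 0.24 (SE, lower in 7 of 8 pairs) with a limma adjusted p of 0.0631. Klf4, which encodes a transcription factor needed for monocyte differentiation, ran the other way. It lay between 2.68 and 4.99 with a median of 4.69 in spleen, and between 1.89 and 3.54 with a median of 3.40 in marrow. Of the spleen arrays, 6 were above the highest marrow array, and the STAT4-/- HFD and HDC-/- control arrays were the 2 others. Its change was 1.02 ± 0.38 (SE) with an adjusted p of 0.0668, and it passed under 12 of 31 other settings.

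None of the receptors passed the test as fitted. Ccr2 lay between 0.24 and 2.99 (median 0.93) in spleen and between 0.30 and 1.88 (median 1.31) in marrow, with a change of 0.12 ± 0.37 (SE, adjusted p = 0.837). Csf1r lay between 4.07 and 5.72 (median 4.86) in spleen and between 3.93 and 4.48 (median 4.38) in marrow, with a change of 0.53 ± 0.24 (SE, adjusted p = 0.116). The 3 Csf1r probes did not share a direction, since the 2 dimmer ones gave 0.59 and −0.24. Cd14 lay between 1.80 and 5.04 (median 3.79) in spleen and between 0.93 and 5.73 (median 5.01) in marrow. Its change was −0.94 ± 0.51 (SE, adjusted p = 0.187), and it was lower in spleen in 7 of 8 pairs. The pair that ran the other way was that of HDC-/- mice on the control diet, and without the 2 arrays nearer the other tissue the change of Cd14 was −1.60 with an adjusted p of 0.0137. Cd14 passed under 5 of 31 other settings, among them the fit that pairs spleen and marrow of a genotype and diet as a replicate block (adjusted p = 0.0423). Ms4a6c, a four-pass membrane protein, changed by 0.78 ± 0.40 (SE, adjusted p = 0.162), S100a4, a calcium-binding protein, by 0.53 ± 0.30 (SE, 0.201) and Clec4a3, an inhibitory C-type lectin receptor, by 0.41 ± 0.43 (SE, 0.492). The plot of tissue differences sets the 10 changes side by side.

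**Figure D2:**
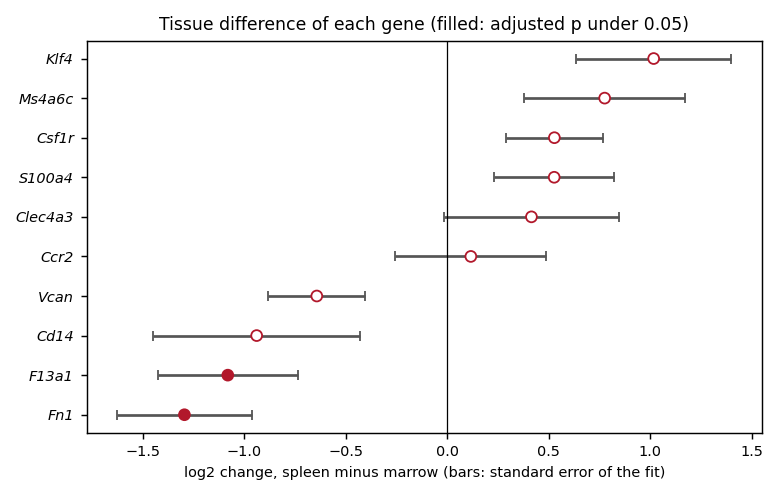
Log2 change, spleen minus marrow, of each gene with the standard error of the fit (8 arrays against 8); filled points passed an adjusted p under 0.05. Only Fn1 (−1.30) and F13a1 (−1.08) are filled, and Klf4 (1.02) is the highest.

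Of 61 listed genes that bind these proteins or belong to the same families, 59 were tested, of which 10 were higher and 15 lower in spleen. The ligands of CCR2 were lower or not called. Ccl7 was lower in 8 of 8 pairs (log2 change −2.08, adjusted p = 0.00288), though well above background on only 3 spleen arrays, against 7 marrow arrays. Ccl8 was lower too (−1.07, adjusted p = 0.0102), while Ccl2 changed by −0.84 (0.104) and Ccl12 by −0.79 (0.166). Of the CSF1R ligands, Il34 fell by 1.00 on the log2 scale (adjusted p = 0.0222) and Csf1 was not called (0.25, 0.614). Lbp, which hands lipopolysaccharide to CD14, was lower (−1.66, adjusted p = 0.0466). Of the integrin subunits that bind fibronectin, Itgb1 was higher (1.00, adjusted p = 0.00471) and Itgb3 lower (−0.78, adjusted p = 0.012).

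The families of Ms4a6c and Clec4a3 held members with larger changes than the genes themselves. Ms4a4b (3.35, adjusted p = 0.00105) and Ms4a6b (1.81, 0.006) were higher in spleen, and Ms4a3, a gene of granulocyte and monocyte progenitors, was lower (−1.95, adjusted p = 0.0192). Of the lectin cluster of 7 genes, 3 were higher and 3 lower. Clec4a4 (2.93, adjusted p = 0.000649) and Clec4n (2.24, 0.00278) were among the higher, while Clec4a2 (−1.58, 0.00232), Clec4d (−0.97, 0.00744) and Clec4e (−0.87, 0.0336), named after their values were seen, were lower. Among 7 further Ly6C-high monocyte genes that were tested, 4 were lower and 0 higher in spleen, with 5 at an unadjusted p under 0.05. Ccr1, a chemokine receptor, fell by 1.80 (adjusted p = 0.00141).

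Markers of other cells moved with tissue as well. Neutrophil markers were lower in spleen for 7 of 11 genes and higher for 0, with a summed signal of 232 to 855.5 times the 75th percentile in spleen, against 494 to 1012 in marrow. Progenitor markers were lower for 4 of 7 and higher for 1 (10.1 to 281 in spleen, 159 to 245 in marrow). Red pulp macrophage markers were higher for 8 of 11 and lower for 0 (56.0 to 130 in spleen, 40.5 to 77.8 in marrow). Nonclassical monocyte markers were higher for 4 of 10 and lower for 1 (17.5 to 58.4 in spleen, 20.3 to 27.5 in marrow), and all 9 conventional dendritic cell markers were higher (4.91 to 47.0 in spleen, 1.62 to 5.53 in marrow), of which Xcr1 was not above background on any marrow array. B-cell markers were higher for 8 of 8, natural killer cell markers for 8 of 8 and T-cell markers for 6 of 7, with 1 lower. Pro-B and pre-B cell markers were higher for 1 of 8 and lower for 5, eosinophil markers lower for 4 of 6, basophil and mast cell markers for 3 of 6 and megakaryocyte markers for 2 of 7, with 0 higher in these 3. Stromal and endothelial markers were higher for 1 of 8 and lower for 3, and erythroid markers higher for 4 of 6 and lower for 0. Itgam itself was lower in spleen (−1.30, adjusted p = 0.00953). In such bulk RNA fewer cells of a type and less RNA per cell cannot be told apart, and the part of cell composition in the changes of the 10 genes was not tested.

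Most of the 10 genes varied more between spleen arrays than between marrow arrays. The SD over 8 arrays was larger in spleen for 8 of the 10 genes, against 44.7% of all features, and the exceptions were Cd14 and Vcan. The SD was 1.41 in spleen against 0.38 in marrow for Clec4a3, 1.29 against 0.65 for Ms4a6c, 1.06 against 0.56 for Ccr2 and 1.02 against 0.28 for S100a4. For Cd14 it was 0.94 in spleen against 1.52 in marrow, where the HDC-/- control array lay at 0.93 and the next lowest at 4.23. The lowest Vcan values of marrow were those of the control-diet arrays labelled HDC-/- (−2.39) and STAT4-/- (−2.07). The SD was not recomputed without these arrays. The median SD of the 10 genes was 0.95 in spleen and 0.47 in marrow, while that of all features was 0.56 in spleen and 0.58 in marrow.

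Ccr2, Ms4a6c, Clec4a3, S100a4 and Csf1r rose and fell together across the spleen arrays: the 10 correlations among them lay between 0.84 and 0.98 (Pearson r over 8 arrays). In marrow the same 10 correlations lay between −0.58 and 0.74. F13a1 and Fn1 correlated at 0.93 in spleen and 0.62 in marrow. Cd14 ran against the 5 genes in spleen, with r between −0.77 and −0.65, and Vcan did so with r between −0.67 and −0.52. In marrow, Cd14 correlated at 0.95 with Klf4 and at 0.86 with Vcan, where the HDC-/- control array held the lowest value of all 3. These are descriptions of 8 arrays that share slides, scaling and genotypes, and the groups of genes were formed after their values were seen. The matrix of correlations shows both tissues.

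**Figure D3:**
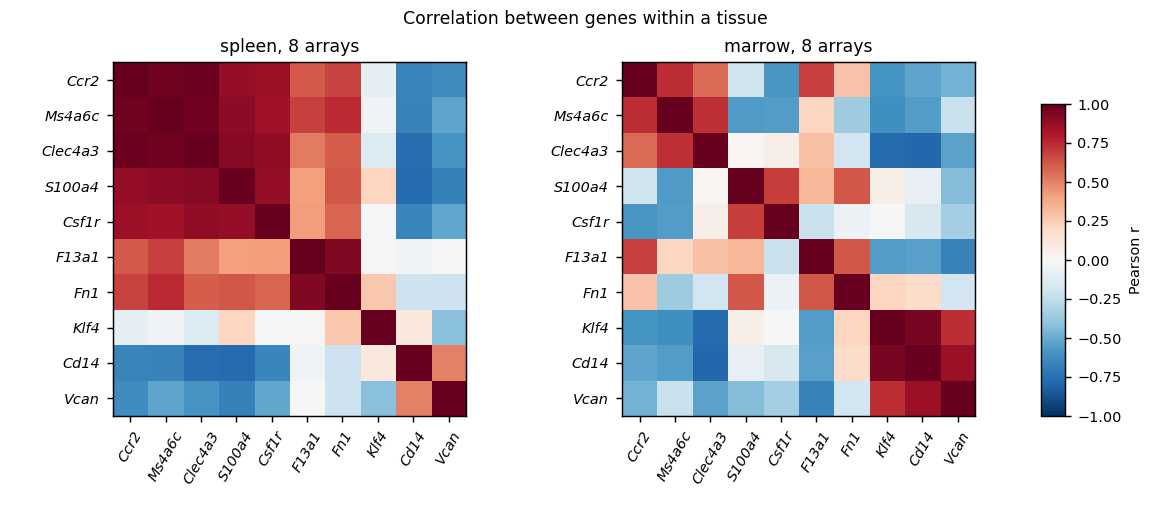
Pearson correlation between each pair of the 10 genes over the 8 spleen arrays (left) and the 8 marrow arrays (right), from −1 in blue to 1 in red. The first 5 genes form a red block in spleen (0.84 to 0.98) that marrow lacks (−0.58 to 0.74).

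At the upper end of that block lay the HDC-/- control spleen array, with levels of 2.99 for Ccr2, 4.36 for Ms4a6c, 4.18 for Clec4a3, 4.96 for S100a4 and 5.72 for Csf1r, the highest of the 8 for each. The STAT4-/- HFD spleen array was the lowest for each, at 0.24, 0.57, −0.01, 1.77 and 4.07 in the same order of genes. Markers of other cells, myeloid and lymphoid, were also at their extremes on this pair of arrays. So was Itgam, at 3.13 on the HDC-/- control spleen array, the lowest of 8, and at 6.05 on the STAT4-/- HFD spleen array, the highest. The nonclassical monocyte markers averaged 2.11 on the HDC-/- control spleen array, the highest of 8, and −0.99 on the STAT4-/- HFD spleen array, the lowest. The neutrophil markers averaged 3.58 on the HDC-/- control spleen array, the lowest of 8, and 5.80 on the STAT4-/- HFD spleen array, the highest. Natural killer cell markers were highest (1.735) and lowest (−3.48) on these arrays in the same order, as were B-cell markers (2.50 and −0.72). T-cell (−0.72) and conventional dendritic cell markers (−1.72) were lowest on the STAT4-/- HFD array too, but highest on other arrays. The HDC-/- control array is among the 4 with low Y-linked signal and the STAT4-/- HFD array is the spleen array nearer the marrow. The part of neutrophil or other cell content in the level of the 5 genes was not tested.

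The diet comparison asked what 3 months of HFD changed. In the STAT4-/- and HDC-/- pairs of both tissues, the control array had low Y-linked signal and the HFD array did not. Diet cannot be told apart from that difference in these pairs. No gene of the 10 was called in spleen or in marrow, and limma called 0% of the 28792 features in either tissue. At an unadjusted p under 0.05, 1302 features differed in spleen and 1736 in marrow, of which 1 and 0 were among the 10 genes. Over all features the median change was 0.15 in spleen and 0.11 in marrow (log2, HFD minus control), and over the 10 genes it was −0.32 in spleen and 0.08 in marrow.

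In spleen the pairs of a genotype did not move alike. Clec4a3 was at 0.31 in HDC-/-, −0.01 in STAT4-/-, 2.04 in STAT6-/- and 1.38 in WT mice on HFD, against 4.18, 1.01, 0.94 and 3.00 in the same genotypes on the control diet. It was thus lower on HFD in 3 pairs, the furthest in HDC-/- (−3.87), and higher in the STAT6-/- pair, and the diet groups overlapped. The fitted change was −1.35 ± 0.61 (SE, 4 pairs, limma adjusted p = 0.771). Ccr2 was at 0.32 in HDC-/-, 0.24 in STAT4-/-, 1.80 in STAT6-/- and 1.17 in WT mice on HFD, against 2.99, 0.69, 0.48 and 2.59 on the control diet. It too was lower in 3 pairs and higher in the STAT6-/- pair, and its fitted change was −0.81 ± 0.53 (SE, adjusted p = 0.771). Ms4a6c (−1.04 ± 0.56), S100a4 (−1.01 ± 0.42) and Csf1r (−0.71 ± 0.34) followed the same pattern of 3 lower pairs and a higher STAT6-/- pair, each with an adjusted p of 0.771. Of the 10 genes, S100a4 was the one at an unadjusted p under 0.05 (0.0359). Without the STAT6-/- HFD array the changes of Clec4a3 and Ccr2 were −2.17 and −1.51, each with an adjusted p of 0.305. Without the 4 arrays with low Y-linked signal they were −0.26 and −0.05, so that the size of the spleen difference rests on which arrays are included.

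F13a1 and Fn1 were higher on HFD in the STAT6-/- spleen pair (by 1.74 and 1.80) and lower in the WT pair (by −1.82 and −1.37), with fitted changes of 0.23 ± 0.49 and 0.07 ± 0.47 (SE). Cd14 was at 4.04 in HDC-/-, 5.04 in STAT4-/-, 3.71 in STAT6-/- and 2.97 in WT spleen on HFD, against 1.80, 3.33, 3.89 and 3.86 on the control diet. It was higher on HFD in the HDC-/- and STAT4-/- pairs and lower in the 2 others, with a fitted change of 0.72 ± 0.72 (SE, adjusted p = 0.781). Klf4 changed by 2.17 in the HDC-/- spleen pair and by −1.98 in the STAT4-/- pair, and Vcan by at most 0.82 in any spleen pair. A second, dimmer Vcan probe had a fitted spleen change of 1.13 (limma adjusted p = 0.771), against 0.32 for the brightest. Beside these, nonclassical monocyte markers had a negative diet change in spleen for 9 of 10 genes and neutrophil markers a positive one for 9 of 11, with 0 called. The median change of all features was itself above 0 there, at 0.15. The summed neutrophil signal was 416 to 855.5 on HFD and 232 to 566 on the control diet, and the summed nonclassical signal 17.5 to 23.6 on HFD and 18.8 to 58.4 on the control diet. Their part in the diet differences of the 10 genes was not tested.

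In marrow the largest difference between diets, among these genes, was that of Cd14 in HDC-/- mice. Cd14 was at 5.03 in HDC-/-, 5.04 in STAT4-/-, 5.41 in STAT6-/- and 4.81 in WT marrow on HFD, against 0.93, 4.23, 5.73 and 4.99 on the control diet. The HDC-/- pair thus differed by 4.10 on the log2 scale, with a low control array and not a high HFD array. That control array is the marrow array nearer the spleen. Its Y-linked genes averaged −7.79, against −0.07 on the HFD array, so this difference cannot be assigned to diet. Its fitted change over the 4 pairs was 1.104 ± 0.72 (SE, adjusted p = 0.698). In the same pair Klf4 was at 3.07 on HFD and 1.89 on the control diet, and Vcan at −0.89 on HFD and −2.39 on the control diet. Csf1r was the gene of the 10 whose marrow arrays did not overlap between diets, as held for 2.48% of features. Its levels were 3.93, 4.12, 4.37 and 4.22 on HFD (HDC-/-, STAT4-/-, STAT6-/- and WT), against 4.39, 4.45, 4.48 and 4.45 on the control diet. The difference was small, at −0.28 ± 0.34 (SE, adjusted p = 0.789), and 2 dimmer Csf1r probes gave 0.32 and 0.24, so the probes disagree in direction. The fitted marrow changes of the remaining genes lay between −0.28 (S100a4) and 0.54 (Vcan). Between them lay Clec4a3 at −0.23, Fn1 at −0.06, F13a1 at −0.02, Ccr2 at 0.19, Klf4 at 0.28 and Ms4a6c at 0.38. A second, dimmer Vcan probe gave 1.90 in marrow (limma adjusted p = 0.69), so the size of the Vcan change depends on the probe.

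The diet effect was also not called over both tissues together (0% of features, with 3627 at an unadjusted p under 0.05 and 0 of the 10 genes among them). Csf1r was lower on HFD in 7 of 8 pairs there (−0.50 ± 0.24, SE, limma adjusted p = 0.387). For how many of all features this held was not counted. The 2 dimmer Csf1r probes changed by only −0.03 and −0.05 over both tissues, so the size of the Csf1r change depends on the probe. A direct test of whether the diet effect differed between spleen and marrow called 0% of features too, with 320 at an unadjusted p under 0.05 and again none of the 10. The differences furthest from 0 were those of Ms4a6c (−1.42 ± 0.79, SE) and Clec4a3 (−1.12 ± 0.86), each with an adjusted p of 1. None of the 59 tested partner genes was called in any of these 4 diet comparisons. The plot of diet differences shows each pair.

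**Figure D4:**
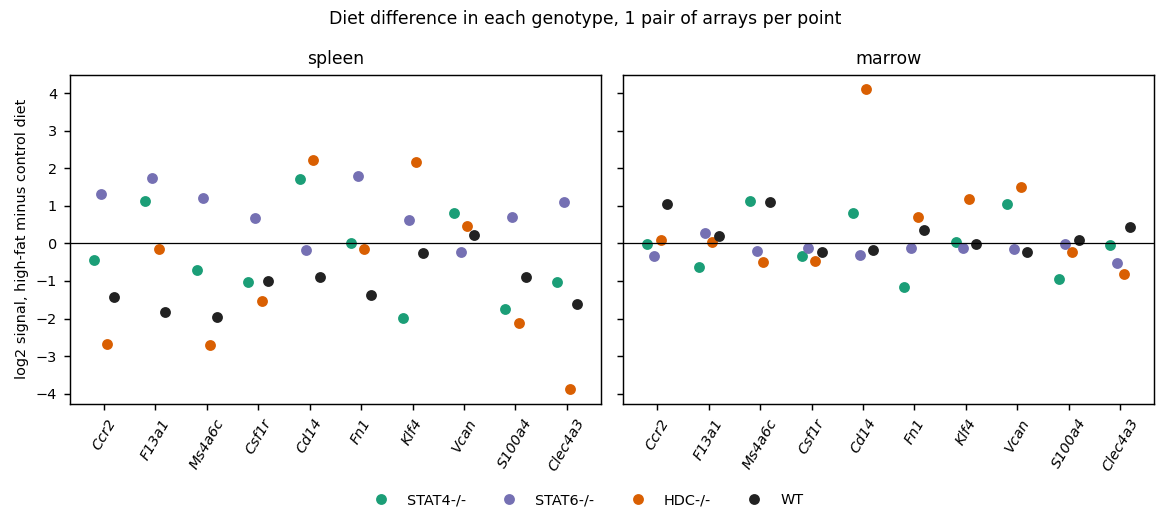
Log2 difference, HFD minus control diet, of each gene in each labelled genotype, in spleen (left) and marrow (right); each point is 1 pair of arrays. In spleen the STAT6-/- pair lies above 0 for Ccr2, Ms4a6c, Csf1r, S100a4 and Clec4a3 where the other 3 pairs lie below, and in marrow Cd14 of HDC-/- mice stands apart at 4.10.

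The genotype comparisons set the arrays labelled STAT4-/-, STAT6-/- or HDC-/- against those labelled WT, 2 arrays against 2 in each tissue, and all 3 share the WT arrays. In spleen none of the 10 genes was called for STAT4-/-, STAT6-/- or HDC-/-, where limma called 0.0104%, 0.0139% and 0.0278% of all features. In marrow none was called either, against 0.0104% of features for STAT4-/-, 3.33% for STAT6-/- and 12% for HDC-/-. Over both tissues the shares of features called were 0.0174%, 0.0313% and 0.153% in the same order, again with none of the 10 genes. At an unadjusted p under 0.05 there were S100a4 and Ms4a6c in STAT4-/- spleen and none in the other 8 of these 9 comparisons. The test of whether a genotype difference itself differed between spleen and marrow called none of the 10 genes, against 0%, 7.44% and 16.4% of all features, with none of the 10 at an unadjusted p under 0.05.

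On the STAT4-/- spleen arrays most of the 10 genes lay below WT. The changes were negative for 8 of the 10 under each of the 5 scalings tried, with a median of −1.05. The median of all features was 0.49, but 0.04 to 0.40 under the 4 other scalings, so the distance of the 10 genes from all features depends on the scaling. S100a4 was at 1.77 and 3.53 on the STAT4-/- arrays, against 3.73 and 4.61 on the WT arrays (HFD first in each), and the groups did not overlap. Its change was −1.52 ± 0.59 (SE, limma adjusted p = 0.138). Ms4a6c was at 0.57 and 1.29 on the STAT4-/- arrays, against 1.73 and 3.70 on the WT arrays, also without overlap, and its change was −1.78 ± 0.79 (SE, adjusted p = 0.179). Clec4a3 changed by −1.69 ± 0.86 (SE, adjusted p = 0.232), Ccr2 by −1.41 ± 0.75 (0.243) and Klf4 by −1.18 ± 0.77 (0.335). Without the 2 arrays nearer the other tissue, which leaves 1 STAT4-/- spleen array, S100a4 changed by −1.02 and Klf4 by 0.23. Without the 4 arrays with low Y-linked signal, which also leaves 1, they changed by −2.35 and −2.26. In all, 7 of the 10 genes had STAT4-/- and WT spleen arrays that did not overlap, 6 lower and 1 higher (Vcan), where 60.7% of all features did not overlap, 10.8% lower and 49.9% higher. On the same arrays the 8 natural killer cell markers were all negative, with a summed signal of 1.31 and 14.4 on the STAT4-/- arrays and 55.8 and 67.7 on the WT arrays, and the 11 neutrophil markers all positive, at 855.5 and 563 on STAT4-/- arrays and 416 and 460 on WT arrays. Their part in the shift of the 10 genes was not tested. With a median of 0.49 over all features, positive changes were common here under this scaling. In marrow the same 10 genes had a median STAT4-/- minus WT change of −0.07, between −0.61 (Vcan) and 0.49 (Ccr2).

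For STAT6-/- the changes lay between −0.74 (Ccr2) and 0.76 (Vcan) in spleen and between −0.66 (Ms4a6c) and 0.67 (Cd14) in marrow. For HDC-/- they lay between −1.09 (Klf4) and 0.68 (Vcan) in spleen. In HDC-/- marrow Cd14 changed by −1.92 ± 1.02 (SE, adjusted p = 0.26), from levels of 5.03 (HFD) and 0.93 (control) in HDC-/-, against 4.81 and 4.99 in WT, and without the 2 arrays nearer the other tissue its change was 0.08. Ccr2 was at 1.88 and 1.79 in HDC-/- marrow, against 1.34 and 0.30 in WT marrow, with a change of 1.02 ± 0.75 (SE, adjusted p = 0.421). Of the partner genes, 3 were called lower in HDC-/- marrow and 2 in STAT6-/- marrow. Csf1, a ligand of CSF1R, was lower in HDC-/- marrow, at −0.65 on average on 2 arrays against 2.20 on 2 WT arrays. Its change was −2.85 ± 0.71 (SE, limma adjusted p = 0.0303), where the median change of all features was −0.45. In HDC-/- spleen Csf1 changed by −3.27 ± 0.71 (SE, limma adjusted p = 0.164), at −0.12 on average against 3.15 in WT. It was not called there, where limma called 0.0278% of all features, against 12% in HDC-/- marrow. The other calls were Adamts5 and Fga in HDC-/- marrow and Adamts4 and Fga in STAT6-/- marrow, none of them above background on those knockout arrays. The differences between spleen and marrow were called for Fga in STAT6-/- and for Adamts5 and Fga in HDC-/-. The plot of genotype differences gives all values.

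**Figure D5:**
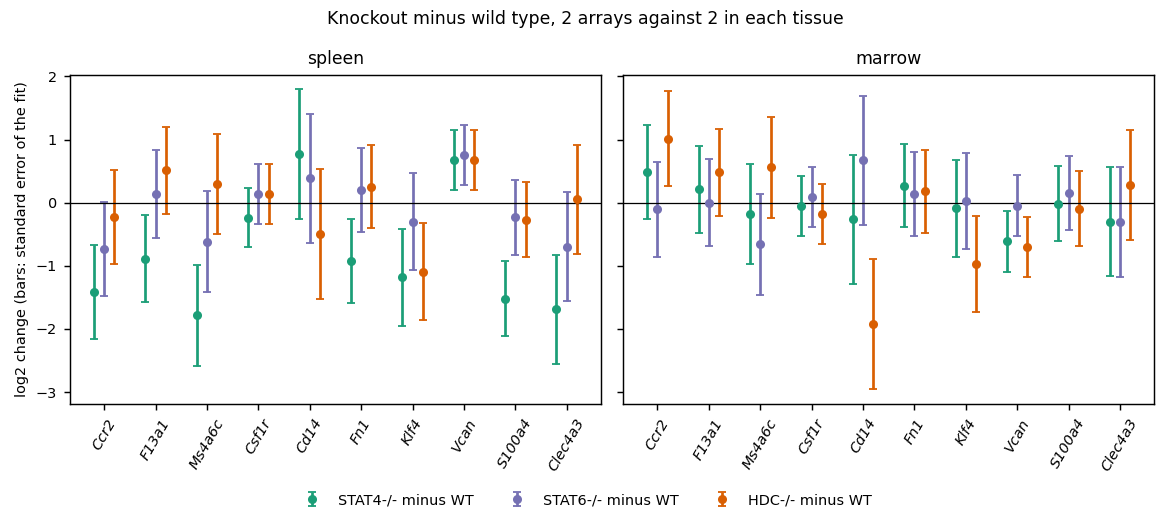
Log2 change of each gene, labelled knockout minus WT, in spleen (left) and marrow (right), with the standard error of the fit (2 arrays against 2). The STAT4-/- spleen points lie below 0 for 8 of 10 genes, and Cd14 in HDC-/- marrow is the lowest at −1.92.

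Whether the diet acted differently in a knockout than in WT mice was tested over both tissues in a model with all pairwise terms. None of the 10 genes was called for STAT4-/-, STAT6-/- or HDC-/-, against 0%, 0% and 0.00695% of all features. The nearest was Cd14 in HDC-/-, where the diet change was larger than in WT by 3.71 ± 0.70 (SE, limma adjusted p = 0.155, unadjusted p = 0.000826), where the HDC-/- control arrays held the lowest Cd14 level of spleen (1.80) and of marrow (0.93). Without the 4 arrays with low Y-linked signal this difference could not be fitted. Klf4 in HDC-/- (1.81 ± 0.76) and Cd14 in STAT4-/- (1.80 ± 0.70) were the other 2 at an unadjusted p under 0.05, with adjusted p of 0.401 and 0.948. In STAT6-/- the difference from WT was positive for 9 of the 10 genes, with a median of 0.80 against −0.18 over all features (−0.26 to 0.08 under the 4 other scalings), and 0 of the 10 passed at an unadjusted p under 0.05. F13a1 had the one furthest from 0, at 1.82 ± 0.90 (SE, adjusted p = 0.976).

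Among genes outside the set, those whose levels followed the mean of the 10 most closely in both tissues were Kifc3, Szrd1, Gm15056, Cbr3, Mtmr10 and Sp8. Likeness was the lower of the Pearson r over the 8 spleen arrays and that over the 8 marrow arrays, and it lay between 0.75 for Sp8 and 0.85 for Kifc3. Those most like Ccr2 alone were Rassf4 (0.92), Cds1 (0.90) and Rwdd2a (0.87). Among 28792 features some reach such values over 8 arrays, and none of these genes was on a list of monocyte genes used here. The mean stands poorly for the 10 genes in marrow, where 25 of the 45 correlations among them were below 0 (median r −0.16). In spleen 19 of 45 were below 0 (median r 0.27).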

How the data were processed

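RNA of CD11b+ cells was measured on 16 one-colour Agilent arrays of 44397 spots, 1 per combination of labelled genotype, tissue and diet. The deposited values are intensity per spot. Per the file headers, the authors used Agilent Feature Extraction 11.0.1.1, whose processed intensity is background-subtracted, with no scaling between arrays. Probes were named by RefSeq accession through a RefSeq table of mouse symbols: 27234 of 39429 (69.1%) matched. Probes flagged as non-uniform or outlying on any array (305) were left out, except Hdc, read from 15 arrays.

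Signals were set to log2 minus the 75th percentile of each array, the brightest probe per gene was used, and features well above background on at least 2 arrays were kept. The limma 3.58.1 fit (R 4.3.3) gave every genotype within a tissue its own mean and let diet act per tissue, leaving 6 residual degrees of freedom, and the diet-by-genotype terms came from a fit with all pairwise terms, leaving 3. Tests were two-sided with Benjamini-Hochberg adjustment over 28792 features at 0.05, and the fit was tested on simulated data. With 1 array per combination, the residual of the main fit is how far the diet difference varied between genotypes within a tissue. It mixes noise with any real interaction of genotype and diet, and no p measures the spread between pools of the same combination. The tissue p does not measure how the tissue difference varied between genotypes. The number of arrays, 1 pool each, limits the precision. The 10 genes were to be named in every comparison, but where none passed some are covered only by the range of their changes. Of 61 partner genes those that pass are named, up to 4 in each direction, with those that bind a member. Marker lists held nonclassical monocyte, neutrophil, progenitor, red pulp macrophage, dendritic, B, pro-B, T, natural killer, megakaryocyte, eosinophil, basophil, stromal and erythroid genes. The genes, lists and alternatives were chosen with earlier results of these data known. No promoter was read for Fn1, Cd14 or Csf1r, and those of Klf4 and Vcan were read but are not shown.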

Additional observations from a re-analysis of the deposited data

Results flagged for a closer look

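Levels of the 10 genes were screened for a sample far from the others in 60 groups of 4 or 8 arrays (each gene by tissue, and by tissue and diet). In 5 of the 60 the gap of the lowest or highest array exceeded Dixon's critical value, and chance flags about 1 in 20 groups. The HDC-/- control array stood apart in 4 of them. It was the lowest of the 8 marrow arrays for Cd14 (0.927, with the next at 4.23). For Klf4 it was the lowest of the 8 marrow arrays and of the 4 control-diet marrow arrays (1.888). For Ms4a6c it was the highest of the 4 control-diet marrow arrays (2.297, with the next at 0.93). The fifth was the STAT4-/- array, the lowest of the 4 HFD spleen arrays for Klf4 (2.684, with the next at 4.72). Both arrays were also nearer the other tissue over all probes.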

How the results depend on the processing

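The tissue comparison was recomputed under 31 alternatives of scaling, background, filter, probe choice, model and arrays, and the other 19 comparisons under the 25 to 30 of these that could be fitted. No called change reversed. In the 19 comparisons without tissue alone, the count of called genes stayed at 0 of 10 under every alternative that could be fitted, apart from 1 gene, Cd14: HDC-/- minus WT in marrow with all pairwise terms (1) or when single arrays were left out (0 to 1, the 1 without the HDC-/- HFD marrow array), and the diet effect in HDC-/- minus that in WT with an intensity trend in the variance prior (1).

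For spleen minus marrow the count of called genes was 2. It was 4 with quantile normalization, 5 with all pairwise terms, 5 without the 2 arrays nearer the other tissue and 0 without the 4 arrays with low Y-linked signal. When single arrays were left out it lay between 1 and 4: it was 1 without the WT HFD, STAT4-/- control or HDC-/- HFD spleen array, or without the WT control, either STAT4-/-, the STAT6-/- control or the HDC-/- HFD marrow array, and 4 without the STAT6-/- control spleen array. With the replicate block, which pairs spleen and marrow of the same genotype and diet, it was 4 (Fn1, F13a1, Klf4 and Cd14), and no label says whether such a pair came from the same animals. Slide as a random block, in a model with additive terms of genotype, tissue and diet, had a correlation of 0.0019. The tissue and genotype terms of that model take up most differences between slides, so this value cannot measure slide effects. The causes were not tested, beyond the fewer arrays of some settings.

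Over all features, 9205 were called between the tissues, 5758 to 10717 without single arrays and 3816 without the 4 arrays with low Y-linked signal. Of these calls 46.5% were higher in spleen, against 63.7% when each array was scaled on probes above background everywhere and 58.7% without the 4 arrays. The first of these scalings moved the median change of all features by 0.19. Over all comparisons the scalings moved that median by −0.68 to 0.42. Features called elsewhere moved too, from 3 to as many as 2077 for STAT4-/- in spleen, from 958 to as few as 2 for STAT6-/- in marrow, and from 3455 to as few as 1 for HDC-/- in marrow. The calls of a tissue difference in STAT6-/- and HDC-/-, 2142 and 4724, dropped to 0 under some settings. Over both tissues the HDC-/- calls lay between 4 and 237 (44 as reported), and those of the HDC-/- diet difference between 0 and 96 (2 as reported). Where a setting left 1 array in a group, that array was assumed to vary like the others. Between 59.9% and 85.3% of probes above background, and 1 array per combination, limit what could be detected.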
